A study of Arabidopsis thaliana with 40 samples.

Results

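The 10 cellulose synthase catalytic subunits of *Arabidopsis thaliana*, CESA1 to CESA10, were examined in CEL-Seq profiles of the root quiescent center (QC), whose few slowly cycling cells organize the stem cells around them. Members were picked out by locus identifier, with earlier results of these data known, and all 10 were present among the 32678 *Arabidopsis* loci of the table. The series holds 40 samples with 1 label, each titled as a single QC cell, from FACS-sorted GFP-positive cells of roots of WOX5:GFP plants in the Col-0 background, harvested 5 days after stratification. In this reporter, the promoter of the QC gene WOX5 drives GFP, and protoplasts were released by digesting the cell wall. No other genotype, treatment, time or control group was included, and no label names a plant, a pool of plants or a batch. A profile could be matched to 39 of the samples, and 1 sample was not analysed here.

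Cellulose is spun out at the plasma membrane by rosette-shaped complexes of CESA subunits that move along cortical microtubules and use UDP-glucose as substrate. A complex needs subunits of different types in each of its positions. In primary walls, which surround growing cells, these are CESA1 (or its relative CESA10), CESA3, and a member of the CESA6 type, filled by CESA6, CESA2, CESA5 or CESA9. Secondary walls, laid down in xylem vessels and fibers once growth has ended, are made by CESA4, CESA7 and CESA8, whose mutants have collapsed (irregular) xylem. In the growing root, the primary set is known to be used broadly and the secondary set mainly in differentiating xylem.

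All CESAs carry a glycosyltransferase signature of glutamine, any residue, any residue, arginine and tryptophan. It was found exactly once in the coding sequence of each of the 10 members in the RefSeq annotation (TAIR10.1), between codon 721 in CESA8 and codon 826 in CESA9. The coding strand around it is shown because every member carries this signature, so that the bases which differ between members can be seen side by side. The 15 bases that encode the signature are in capitals, with 15 bases on each side.
CESA1: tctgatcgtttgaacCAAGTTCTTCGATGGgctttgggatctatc
CESA10: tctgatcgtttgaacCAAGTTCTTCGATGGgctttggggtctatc
CESA3: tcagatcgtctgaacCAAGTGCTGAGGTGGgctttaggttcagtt
CESA6: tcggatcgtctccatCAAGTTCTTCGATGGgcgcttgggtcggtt
CESA2: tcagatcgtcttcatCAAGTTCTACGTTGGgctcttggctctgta
CESA5: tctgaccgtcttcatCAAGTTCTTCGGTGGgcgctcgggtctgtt
CESA9: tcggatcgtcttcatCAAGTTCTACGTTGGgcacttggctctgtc
CESA4: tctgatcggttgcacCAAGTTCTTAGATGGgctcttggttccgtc
CESA7: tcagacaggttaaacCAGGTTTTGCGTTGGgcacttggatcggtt
CESA8: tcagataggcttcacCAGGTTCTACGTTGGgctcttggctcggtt

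Among the 45 pairs of members, aligned coding bases were most alike for CESA6 and CESA5, with 85.96% identical. CESA2 and CESA9 followed with 84.66%, and CESA1 and CESA10 with 84.07%. The 21 pairs of a primary-wall with a secondary-wall member had a median identity of 69.61%, and the 3 pairs within the secondary set one of 70.49%. The last 60 coding bases of the 2 closest pairs are shown, with the bases that differ within a pair in capitals. CEL-Seq reads come from near the 3′ end of a transcript. In these 4 genes that end lies past the coding bases, by 249 bases in CESA9 to 442 in CESA5. The first pair differed at 6 and the second at 13 of the 60 bases.
CESA5: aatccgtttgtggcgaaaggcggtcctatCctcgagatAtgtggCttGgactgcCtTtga
CESA6: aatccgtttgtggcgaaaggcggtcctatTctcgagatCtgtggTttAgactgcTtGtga
CESA2: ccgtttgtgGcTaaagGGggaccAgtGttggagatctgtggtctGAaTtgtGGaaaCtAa
CESA9: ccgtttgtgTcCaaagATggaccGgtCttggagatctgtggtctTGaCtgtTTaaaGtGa
Over whole transcripts, a stretch of 50 identical bases was shared by only 1 of the 45 pairs, CESA5 and CESA6, and it occurred once. In the last 500 bases of the transcripts, 0 such stretches were shared by any pair. The read length of the CEL-Seq libraries is not given in the sources used here, so shorter reads may still match more than 1 member.

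The profiles were not independent cells. When ordered by depth, from QC cell 4 with 57655 counts over *Arabidopsis* loci through a median of 2096738 to QC cell 22 with 7431708, 0 values of the table were lower in a deeper profile than in the preceding one. They were therefore read as 1 sample at 39 depths, and no test between conditions was possible. Intervals are 95% and cover counting error only, since no molecular identifiers are stated. Of 7 QC and meristem markers, 4 were above 0 in QC cell 22, or 57.1%, near the 51.3% of all *Arabidopsis* loci. SCR (AT3G54220) had 28.5 CPM (counts scaled to a total of 1000000), WOX5 (AT3G11260) 10.6, SHR (AT4G37650) 4.17 and AGL42 (AT5G62165) 2.96. PLT1, PLT2 and BBM were listed at 0 in every profile, as was the GFP reporter in QC cell 22.

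All 10 CESA genes were above 0 in the deepest profile, where 51.3% of *Arabidopsis* loci were above 0. With a limit of 1 CPM, 9 members remained, against 48.5% of loci. In the shallowest profile the count was 5 of 10, against 15.3% of loci, and these 5 were CESA1, CESA2, CESA3, CESA5 and CESA6. As no value fell with depth, these same 5 primary-wall genes were necessarily above 0 in all 39 profiles. The number of members above 0 was 5 in the 2 profiles of up to 114683 counts, 6 in the next 7 profiles of up to 450108 counts, and 7 in the next 10 of up to 2039869 counts. All 7 primary-wall genes were thus above 0 before any secondary-wall gene was. Detection of all loci rose over the same range. At 114683, 450108 and 2039869 counts, 7078, 11280 and 14993 of the 32678 *Arabidopsis* loci were above 0.

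**Figure D1:**
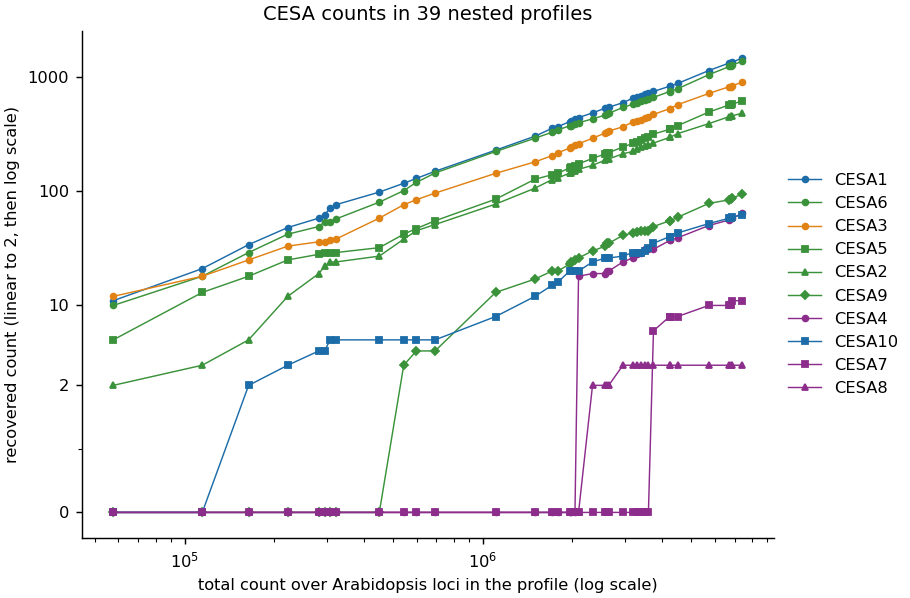
Recovered count of each CESA gene (y axis, linear up to 2 and logarithmic above) against the total count of the profile (x axis, log scale) in 39 nested profiles, with color for the set. The 5 abundant primary-wall genes gain counts from the shallowest profile on, while CESA4, CESA7 and CESA8 are at 0 in every profile of up to 2039869 counts.

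CESA1 (AT4G32410, chromosome 4, 15640490 to 15646844, minus strand, 14 exons), whose loss in mutants swells the root tip, had the highest level. Its CPM was 183 in the lowest profile, 205 at the median and 236 in the highest. In QC cell 22 it held 1460 counts, or 196 CPM (interval 187 to 207), and 95.1% of detected loci had a lower CPM. CESA6 (AT5G64740, chromosome 5, 25881033 to 25886728, plus strand, 13 exons), defective in the procuste mutant with short hypocotyls, ranged from 157 CPM through a median of 182 to 208. Its level in QC cell 22 was 185 CPM (interval 175 to 195), from 1372 counts. Over the nested profiles, which share counts, these 2 genes stayed within narrow ranges, and their ranges overlapped.

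CESA3 (AT5G05170, chromosome 5, 1530132 to 1535558, minus strand, 15 exons), the only gene of its type and named CEV1 in the RefSeq table, had 118 CPM in its lowest, 124 in its median and 208 in its highest profile. The highest value came from the shallowest profile and rested on 12 counts. In QC cell 22 CESA3 held 898 counts, or 121 CPM (interval 113 to 129). The remaining abundant genes belonged to the CESA6 type and are known to take over in part when CESA6 is lost.

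CESA5 (AT5G09870, chromosome 5, 3072870 to 3078416, plus strand, 13 exons) had between 71.1 and 113 CPM, with a median of 82.5 and 83.2 CPM (interval 76.7 to 90.0) in QC cell 22. CESA2 (AT4G39350, chromosome 4, 18296388 to 18302192, plus strand, 13 exons) had between 26.2 and 77.9 CPM, with a median of 70.7 and 64.7 CPM (interval 59.1 to 70.8) in QC cell 22. The lowest CESA2 value came from the profile of QC cell 38, the next deeper one after QC cell 4, where the gene held 3 counts.

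CESA9, best known from the seed coat, and CESA10, the closest relative of CESA1, were at the low end of the primary set. CESA9 (AT2G21770, chromosome 2, 9284391 to 9289744, plus strand, 13 exons) was at 0 in 9 profiles, had a median of 12.4 CPM and a highest value of 13.9 CPM. It reached 94 counts in QC cell 22, or 12.6 CPM (interval 10.2 to 15.5), slightly above the median of 12.1 CPM over all detected loci. CESA10 (AT2G25540, chromosome 2, 10866822 to 10872243, minus strand, 14 exons) was at 0 in 2 profiles, with a median of 9.20 CPM and a highest value of 16.2 CPM. It reached 62 counts in QC cell 22, or 8.34 CPM (interval 6.40 to 10.7). Counts of CESA1 were 23.5 times those of CESA10 (interval 18.3 to 30.9), and counts of CESA6 were 14.6 times those of CESA9 (interval 11.8 to 18.2).

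The secondary-wall genes were low and appeared late. CESA4 (AT5G44030, chromosome 5, 17714390 to 17719723, plus strand, 11 exons) was at 0 in 19 profiles and had 7.36 CPM at the median and 8.85 CPM in the highest profile. In QC cell 22 it held 64 counts, or 8.61 CPM (interval 6.63 to 11.0). CESA10, at 8.34 CPM there, was above 0 in 37 profiles, against 20 for CESA4, so late appearance did not follow level alone. CESA7 (AT5G17420, chromosome 5, 5736630 to 5741500, minus strand, 12 exons), named IRX3 in the RefSeq table, was at 0 in 30 profiles and never above 1.89 CPM. It held 11 counts in QC cell 22, or 1.48 CPM (interval 0.739 to 2.65), and 9.14% of detected loci had a lower level. CESA8 (AT4G18780, chromosome 4, 10312624 to 10316886, minus strand, 12 exons), named IRX1, was at 0 in 20 profiles and held 3 counts in QC cell 22, or 0.404 CPM (interval 0.0832 to 1.18). It was at 2 counts when first seen and stayed at 3 counts in the deepest profiles.

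The CESA4 count has to be read beside its neighbor. The first 17 bases of CESA4 overlap the 3′ end of AT5G44020 on the same strand, and that gene held 6009 counts, or 809 CPM, in QC cell 22. The CESA4 count was 1.07% of this. The labels do not say how reads in such an overlap were counted, and the part of AT5G44020 in the CESA4 value was not tested. The CESA4 transcript model used here has 0 bases of 3′ untranslated region, against 229 in CESA7 and 222 in CESA8. Whether CESA4 reads past its annotated end were missed, which would lower its count, was not tested. CESA8 overlaps MYB98 (AT4G18770) tail to tail over 481 bases on the opposite strand. MYB98 held 25 counts in QC cell 22, and both genes were first above 0 in the same profile, QC cell 21, which was the first for 1.61% of the 11783 loci that appeared after the shallowest profile. Use of strand in the counting is not stated, so the part of MYB98 in the CESA8 counts was not tested either. The antisense neighbors of CESA1, CESA3, CESA7 and CESA10 overlap them by 28, 74, 66 and 89 bases and held 189, 12, 125 and 40 counts. The CESA7 count was 8.8% of that of its neighbor, and the part of these neighbors in the CESA counts was not tested. CESA4 also overlaps AT5G44040 by 65 bases on the opposite strand, which held 14 counts, and CESA8 overlaps the noncoding AT4G06845 by 81 bases, whose level was not analysed here.

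A value of 0 in these profiles did not limit the level of a gene. CESA4 was listed at 0 in QC cell 33 with 2039869 counts, where 17.6 counts would be expected from its level in QC cell 22, and then at 18 counts in the next deeper profile. A value of at least 10 counts expected in the last profile at 0 was seen for 1 of the 5 members that first appeared after the shallowest profile, and for 5.58% of all 11783 such loci. The other 4 members had smaller values, with 5.69 counts for CESA9, 5.32 for CESA7, 0.957 for CESA10 and 0.846 for CESA8. On first appearance, CESA9 held 3 counts, CESA7 held 6, and CESA10 and CESA8 held 2 each.

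To compare members with each other, levels in QC cell 22 were divided by the length of the coding sequence. This length ran from 2958 bases in CESA8 to 3267 bases in CESA9. Since CEL-Seq reads come from near the 3′ end of a transcript, counts need not scale with it. Undivided CPM ranked the members in the same order. The order was CESA1 with 60.5 CPM per kilobase, CESA6 with 56.7, CESA3 with 37.8, CESA5 with 25.9, CESA2 with 19.9, CESA9 with 3.87, CESA4 with 2.66, CESA10 with 2.63, CESA7 with 0.480 and CESA8 with 0.136. Of the 9 neighboring pairs in this order, 6 differed by more than counting error. The interval of the ratio held 1 for CESA1 to CESA6 (ratio 1.07, interval 0.991 to 1.15), for CESA4 to CESA10 (ratio 1.01, interval 0.703 to 1.46) and for CESA7 to CESA8 (ratio 3.52, interval 0.930 to 19.7). The sharpest drop among the primary members was from CESA2 to CESA9, with a ratio of 5.14 (interval 4.11 to 6.48).

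**Figure D2:**
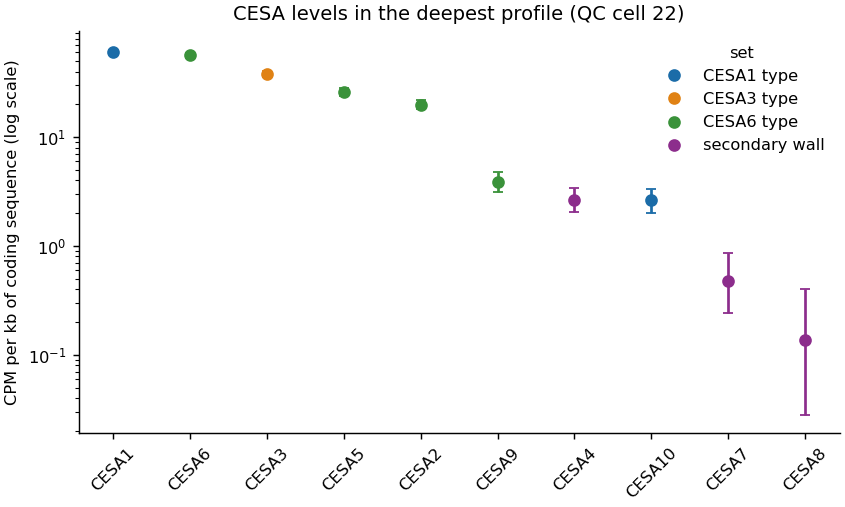
Level of each CESA gene in the deepest profile, QC cell 22, as CPM per kilobase of coding sequence (log scale), with exact 95% Poisson intervals that cover counting error only and color for the set. CESA1 and CESA6 lead at 60.5 and 56.7, while CESA4 lies beside CESA10 at 2.66 and 2.63 and CESA7 and CESA8 lie lowest.

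Taken as sets, the 7 primary-wall genes summed to 671 CPM (interval 652 to 690) in QC cell 22 and the 3 secondary-wall genes to 10.5 CPM (interval 8.30 to 13.1). The secondary set thus held 1.54% of all CESA counts (exact Clopper-Pearson interval 1.22% to 1.92%). The mean level per member was 95.8 CPM in the primary and 3.50 CPM in the secondary set, a ratio of 27.4 (interval 21.9 to 34.7). In the 20 nested profiles where the secondary set was above 0, which share counts, this ratio lay between 25.3 and 36.2. Per kilobase of coding sequence it was 27.1. CESA4 alone held 82.1% of the secondary counts (interval 71.7% to 89.8%). Without CESA4, whose overlap is given above, the ratio was 102. That value rested on 11 counts of CESA7 and 3 of CESA8, which also overlap other genes, and no interval was taken.

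Within the primary set, the 3 positions of the complex did not hold equal counts. The CESA6 type held 51.5% of primary counts (interval 50.1% to 52.9%), the CESA1 type 30.5% (interval 29.3% to 31.8%) and CESA3 18.0% (interval 17.0% to 19.1%). Counts of the CESA1 type were 1.69 times those of CESA3 (interval 1.56 to 1.84), and those of the CESA6 type 1.69 times those of the CESA1 type (interval 1.58 to 1.80). CESA6 itself made up 53.5% of its type, CESA5 24.1%, CESA2 18.8% and CESA9 3.66%. Over all 39 nested profiles, which share counts, the CESA6 type was highest in each, with a share from 42.5% to 52.2%. CESA3 held 30.0% in the shallowest profile, above the CESA1 type at 27.5%, and this order rested on 12 against 11 counts.

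**Figure D3:**
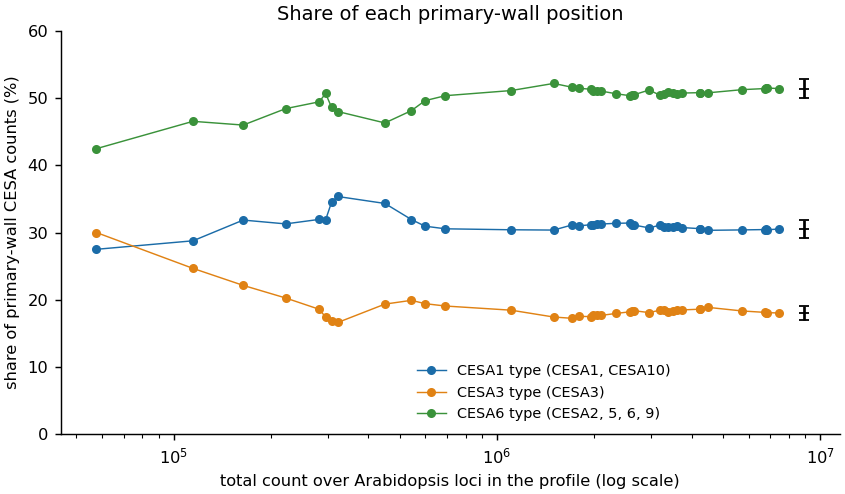
Share of primary-wall CESA counts held by each of the 3 types of subunit (y axis, percent) against the total count of the profile (x axis, log scale), with black bars for the exact 95% interval in QC cell 22. The shares approach 51.5%, 30.5% and 18.0%, the values of QC cell 22. As the profiles are nested and share counts, this approach was largely fixed in advance.

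Since each profile contained the counts of the shallower ones, the 39 separate portions (the shallowest profile and the 38 differences between successive profiles) were also examined. These held between 12920 and 1228427 counts. CESA1 was above 0 in all 39 portions, CESA6 and CESA2 in 38, CESA3 and CESA5 in 37, CESA9 in 24, CESA10 in 22, CESA4 in 14, CESA7 in 4 and CESA8 in 2. The variance of counts across portions, relative to Poisson sampling at the level in QC cell 22, was 1.12 for CESA1, 1.20 for CESA6, 1.30 for CESA3, 1.12 for CESA5 and 1.26 for CESA2. The median over the 3285 loci with at least 390 counts was 1.10, and 90% of them lay between 0.710 and 3.37. The 5 abundant CESA genes therefore varied little more than read sampling gives, as was usual for loci of this depth.

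Of 1767 loci of at least 100 CPM, those whose log2(CPM + 1) followed CESA1 most closely over these 39 portions were the secretory carrier gene AT1G61250, with a Pearson r of 0.66, the raffinose synthase gene AT5G40390, with 0.65, and AT3G24160, with 0.62. For CESA6 and CESA3 the same value was -0.54 and -0.15. The median over loci was -0.08, and the lowest value -0.76. Small portions held few counts of each gene and all portions belong to 1 sample, so these values describe sampled counts and were not tested.

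Transcripts of proteins that work with the CESAs were measured along with those of the CESAs. All 12 genes listed as partners of the complex were above 0 in QC cell 22, against 51.3% of all loci. Their median was 25.0 CPM, against 12.1 CPM over all detected loci and 0.673 CPM over all loci. KOR1 (AT5G49720), a membrane-bound endoglucanase required for cellulose synthesis, led with 203 CPM (interval 193 to 214). CTL1 (AT1G05850), a chitinase-like protein, had 128 CPM (interval 120 to 136), and SHOU4L (AT1G16860), a regulator of CESA delivery to the membrane, 97.6 CPM (interval 90.6 to 105). CSI1 (AT2G22125), which ties the complex to microtubules, had 90.8 CPM, and COB (AT5G60920), a membrane-anchored protein of oriented cell expansion, 89.6 CPM. Of 10 genes of UDP-glucose supply, 9 were above 0, or 90.0%, against the same 51.3% of loci. Highest were the cytosolic invertase CINV1 (AT1G35580) at 406 CPM and the sucrose synthase SUS1 (AT5G20830) at 176 CPM. The pyrophosphorylase UGP1 (AT3G03250) followed at 47.6 CPM. SUS2 was listed at 0.

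Genes of secondary walls and xylem were sparse beside the secondary CESAs. Of 19 listed genes, 6 were above 0 in QC cell 22, or 31.6%, against the 51.3% of all loci given above, and together they summed to 9.69 CPM. IRX8 (AT5G54690), an enzyme of secondary-wall xylan, had 3.50 CPM (interval 2.29 to 5.13), XCP2 (AT1G20850), a xylem peptidase, 2.15 CPM (interval 1.23 to 3.50), and the NAC factor NST1 (AT2G46770) 1.35 CPM (interval 0.645 to 2.47). VND7, MYB83 and CTL2 lay between 0.538 and 1.21 CPM, from 9, 7 and 4 counts. The other 13 were listed at 0 in every profile, namely the regulators VND6, MYB46 and SND1, the membrane and wall proteins COBL4, TED6, FLA11 and FLA12, the xylan genes FRA8, IRX9 and IRX10, the laccases LAC4 and LAC17, and the peptidase XCP1. The samples are labelled as single cells, and the nested counts do not say how many cells they came from. If there were several, fewer cells of a type and less RNA per cell cannot be told apart. Whether xylem cells contributed the CESA4, CESA7 and CESA8 counts was not tested.

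**Figure D4:**
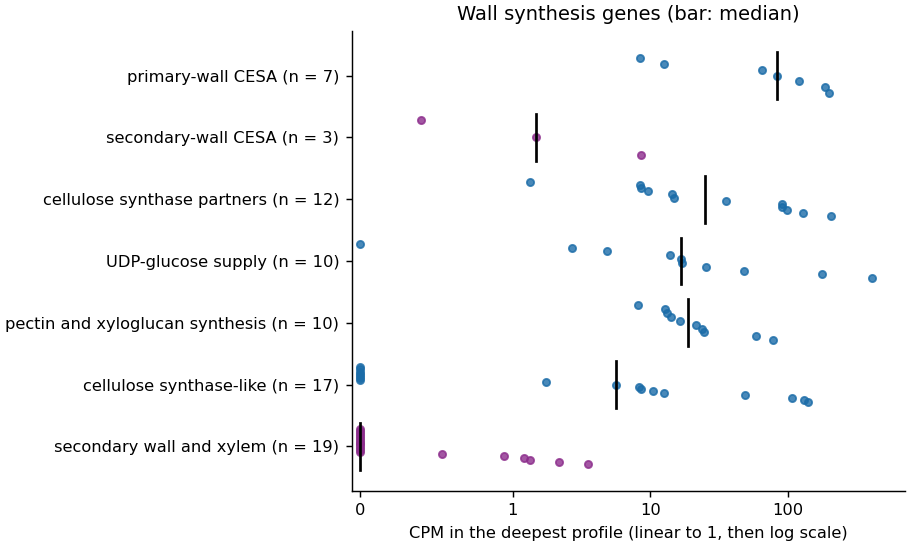
CPM in the deepest profile (x axis, linear up to 1 and logarithmic above) of the CESA genes and of 5 lists of wall genes, with 1 point per gene and a black bar at the median of each list. The primary-wall CESAs have a median of 83.2 CPM and the secondary-wall CESAs one of 1.48 CPM, while 13 of 19 genes of secondary walls and xylem lie at 0.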

How the data were processed

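The authors deposited 1 table of log2 values for 39 profiles, which they describe for their libraries as read counts normalized to depth, plus 1. The submitters' processing notes name Bowtie2 and TAIR10. Counter, filters, read length and use of strand for CEL-Seq are not given in the sources used here. In the methods for its other single-cell libraries, the paper removed genes of low coverage. Whether this was done for CEL-Seq is not stated, and its part in values of 0 was not tested. Columns were matched to samples by barcode without its last base. Counts were recovered as whole multiples of the smallest step of each profile (largest deviation 0.0011 of a step, smallest count above 0 equal to 2) and scaled to CPM over *Arabidopsis* loci, without 91 ERCC rows (4.97% of the deepest profile) and reporters. Gene models, coordinates and sequences came from RefSeq TAIR10.1 by locus tag, and all 10 loci matched. Identity was counted over aligned bases of global alignments. Poisson, Clopper-Pearson and conditional binomial intervals are exact. Recovery and intervals were tested on simulated data. Members and lists were chosen with earlier results of these data known. All members are named, and of each other list the 3 highest by CPM. CSI1 and COB were added after their values were seen. CPM of list genes were not divided by length. Python 3.11.15, numpy 2.4.6, pandas 2.3.3, scipy 1.17.1 and Biopython 1.88 were used.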

Additional observations from a re-analysis of the deposited data

How the results depend on the processing

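Detection of members, levels and shares rest on 1 sample, so an alternative was taken as changed when it left the counting interval, or for numbers of genes and profiles when it passed 1.5 times. Of 21 alternatives listed beforehand 15 stayed within this tolerance, and of 11 chosen after the data were seen 9 did. Most of the latter took the second deepest profile, whose 6866489 counts are contained in the 7431708 of the deepest. Their agreement was therefore largely fixed in advance. Alternatives listed beforehand that took a median over profiles also share counts with the deepest profile. These tallies therefore cannot measure how robust the results are. The shallowest profile held 5 members in place of 10. The ratio of the primary to the secondary set was 37.1 without CESA9 and CESA10, 83.9 without the highest member of each set, 102 without CESA4 (chosen after its overlap was seen) and 18.9 from means of log2(CPM + 1). The added 1 raises low values most on that scale and so lowers the fold. With 0.1 added in its place, the ratio was 31.05. In a shallower profile listed beforehand, QC cell 32 with 692301 counts, the secondary set held 0 counts and gave no ratio. The summed level of all members was 681 CPM, 647 CPM over all rows and 791 CPM without 4 ribosomal RNA loci, as the smaller or larger total sets. The CESA3 share was 19.4% per kilobase of transcript, also chosen after the data were seen. No paired analysis was possible because there was 1 group. Counting limits CESA7 and CESA8 most, with 11 and 3 counts.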

Other observations

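The cellulose synthase-like genes, relatives of the CESAs, ranged from 0 to 139 CPM. Of 17 listed genes, 10 were above 0 in QC cell 22, or 58.8%, near the 51.3% of all loci. CSLD3 (AT3G03050), known for its need in root hair growth, had 139 CPM (interval 131 to 148), CSLE1 (AT1G55850) 131 CPM (interval 123 to 140), and CSLD2 (AT5G16910) 107 CPM (interval 99.3 to 114). In the shallowest profile, 5 of the 17 listed genes were above 0, these 3 among them, against 15.3% of all loci. In QC cell 22, the 7 detected genes other than CSLD3, CSLE1 and CSLD2 lay between 1.75 CPM for CSLA9 and 48.8 CPM for CSLC4. CSLD4, CSLD5, CSLD6, CSLA2, CSLG1, CSLG2 and CSLG3 were listed at 0. All 10 listed genes of pectin and xyloglucan synthesis were above 0, with a median of 18.8 CPM. QUA2 (AT1G78240), needed for pectin and cell adhesion, had 77.0 CPM (interval 70.8 to 83.5), and the xyloglucan xylosyltransferase XXT2 (AT4G02500) 58.1 CPM (interval 52.8 to 63.9). GAUT7 (AT2G38650), an anchor of pectin synthesis, followed with 24.4 CPM.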
